A study of Mus musculus with 123 samples.

Results

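Single neurons of the dorsal root ganglion (DRG), the cell bodies of sensory axons, were compared between the side of a cut sciatic nerve and the uncut side 7 days after surgery. The comparison took all 47 single-cell libraries of that day, chosen by the side and the day in their titles alone, of 106 single cells left after the authors had removed outliers and of 123 samples in the whole series. None of the cells removed as outliers was from day 7. On the side of sciatic nerve transection (SNT) there were 33 cells, 16 from female and 17 from male mice. On the contralateral side, called control below, there were 14 cells, 7 from each sex. SNT neuron and control neuron name the side a cell was picked from and not whether its axon was cut. Both groups came from the same kind of animal, C57BL/6 mice aged 2 months with no transgene named. The right nerve was cut at mid thigh under ketamine and xylazine. The ganglia L3 to L5 of both sides were dissociated with enzyme, single somata were picked by hand, and cDNA was made by Smart-seq2, a full-length method without molecular identifiers, with 18 cycles of PCR and paired reads of 75 bases. The control cells are thus from operated animals. The protocol text of these samples names both day 3 and day 7, and the day was taken from the titles.

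When the peripheral axon of a DRG neuron is cut, the neuron is known to switch on transcription factors such as Atf3, Jun and Sox11, growth-cone proteins, and neuropeptides that it makes little of when intact. DRG neurons are of several types. Large myelinated (LM) neurons express the heavy neurofilament Nefh, and among them proprioceptors, which sense muscle stretch, express parvalbumin (Pvalb). Peptidergic (PEP) nociceptors express the peptide CGRP (Calca), and non-peptidergic (NP) nociceptors express Mrgprd. The sciatic nerve carries only some of the axons of these ganglia, and no label says which of the picked SNT neurons had been cut.

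Total counts lay between 261351 and 965292 in SNT neurons (median 575179) and between 510014 and 1018545 in control neurons (median 738947). Each library was scaled to counts per 1000000 (CPM), with no correction for gene length, so levels are compared between cells and not between genes. Genes above 10 CPM numbered 8276 ± 338 per SNT neuron and 8477 ± 257 per control neuron (SD over 33 and 14 cells), and 8185 ± 319 and 8393 ± 208 when every cell was thinned to 250000 counts. No label names the animal of a cell, so each side was treated as 1 sample, no test of the sides was made, and every SD given here is over cells of the 2 sides (n = 33 and n = 14). The only separation of animals in the labels is sex, by which female and male cells of a side came from different animals. A gene was therefore called higher or lower when its mean reached 10 CPM on the higher side and the log2 ratio of mean CPM + 1 (SNT over control) passed 1 in the same direction over all cells, within female cells and within male cells. Copies made by PCR were counted as reads, so intervals cover counting error only. Intervals and limits on shares of cells take the cells as independent draws, which cells of shared animals are not, and describe the cells picked rather than the condition.

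The labels were checked against marker genes before any comparison. Control cell 7, labelled female, had no read of Xist, the RNA that coats the inactive X chromosome, and 83.3 CPM summed over 4 Y-linked genes, as in cells labelled male. The other 46 cells had more Xist than Y-linked reads when labelled female and the reverse when labelled male. Control cell 7 was kept as labelled, so the female control counts and ratios include it, with Calca at 8137 CPM and Apoe at 5919 CPM. Without control cell 7 there were 260 genes called higher and 126 lower, of which 252 and 116 were also called with it. The cells were neurons by their transcripts. The neuronal tubulin Tubb3 was at 1808 CPM or more in every SNT neuron and at 3128 CPM or more in every control neuron. Nefh was at 1000 CPM or more in 31 of 33 SNT neurons and 13 of 14 control neurons, with means of 3219 ± 2112 and 2954 ± 1827 CPM. The types were not picked in equal numbers from the sides. Calca of 100 CPM or more was found in 11 of 33 SNT neurons (33.3%, exact binomial 95% interval 18.0% to 51.8%) and in 7 of 14 control neurons (50.0%, 23.04% to 76.96%). Within SNT neurons it was found in 2 of 16 female and 9 of 17 male cells. Mrgprd of 100 CPM or more was found in control cell 14 alone, at 1588 CPM, and in 0 of 33 SNT neurons, which allows a share of up to 10.6%. Pvalb of 500 CPM or more was found in 6 of 33 SNT neurons (18.2%, 6.98% to 35.5%) and 0 of 14 control neurons, which allows up to 23.2%. A lower number of cells of a type and less RNA per cell cannot be told apart in the side means.

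At day 7 the largest differences were genes that a minority of SNT neurons expressed at high levels and control neurons hardly at all. Of 24134 genes, 9622 reached the level, and 272 of these were called higher (2.83%) and 126 lower (1.31%), together 398 (4.14%). Injury factors (Atf3, Sox11), growth-associated genes (Sprr1a, Gap43, Stmn4) and neuropeptides (Npy, Nts, Gal) were among the genes called higher. Those called lower included ionotropic serotonin receptors (Htr3a, Htr3b), the delta opioid receptor (Oprd1) and several potassium channels (Kcnd1, Kcnt1, Kcnk18). A log2 ratio past 3 was found for 63 of the genes called higher, and one past -3 for 6 of those called lower. The median log2 ratio over all 9622 genes was -0.07. Without the requirement within each sex, 737 genes (7.66%) passed, 428 higher and 309 lower.

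**Figure D1:**
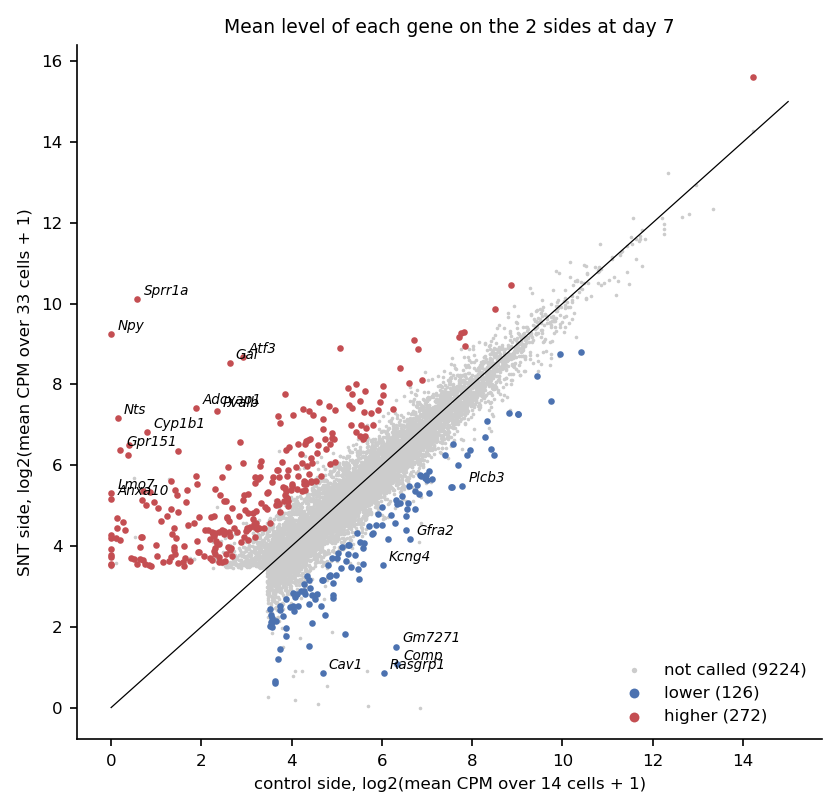
Each point is 1 of 9622 genes, with the mean level over 14 control neurons on the horizontal axis and over 33 SNT neurons on the vertical axis, both as log2(mean CPM + 1). Red points are the 272 genes called higher in SNT neurons, blue points the 126 called lower and grey points the rest; the diagonal marks equal levels, and Sprr1a and Npy lie farthest above it.

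The transcription factor Atf3, a marker of cut axons, fell into separate groups of cells. In SNT neurons it ranged from 0 to 1778 CPM with a median of 9.19, and in control neurons from 0 to 28.997 CPM with a median of 3.89. In 12 of 33 SNT neurons (36.4%, 20.4% to 54.9%) it was above every control neuron, and these 12 lay between 704.4 and 1778 CPM. The other 21 SNT neurons lay between 0 and 13.9 CPM, inside the control range, and no cell lay between 28.997 and 704.4 CPM. The 12 cells were 8 of 16 female and 4 of 17 male cells. The mean was 409.7 ± 569 CPM in SNT neurons and 6.57 ± 7.82 CPM in control neurons, a log2 ratio of 5.76 (7.06 in female and 4.67 in male cells).

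The same 12 cells carried most of the largest rises, as a count over cells and with no test, since the cells were picked out by Atf3 after the values were seen. Sprr1a, a small proline-rich protein that promotes axon outgrowth, had the largest log2 ratio, 9.52. It was at 786 to 4867 CPM in the 12 cells, at no more than 3.126 CPM in the other 21 SNT neurons and at no more than 2.78 CPM in control neurons. Neuropeptide Y (Npy) was listed at 0 in all 14 control neurons, at 9.28 to 6483 CPM in the 12 cells, and at 0 in 20 of the other 21. The summed Npy counts of the SNT side were at least 2167-fold higher than 3 counts over the control side, the limit that a count of 0 allows. Neurotensin (Nts), another neuropeptide, was at 95.2 to 1262 CPM in the 12 cells and at no more than 2.63 CPM in all others of that side. It had 1 count in all control neurons together, and the ratio of scaled counts was 1749 with a counting interval of 314 to 69103. Gpr151, an orphan receptor of habenular and injured sensory neurons, was at 32.8 to 557 CPM in the 12 cells, and rested on 2 control counts (ratio 520.5, 144 to 4301). The activin-binding protein follistatin (Fst), overlapped by an antisense gene, was at 36.1 to 478 CPM in the 12 cells and at no more than 4.78 CPM in the other SNT neurons. All 12 cells, and no other SNT neuron, lay above every control neuron in 11 genes at once. These were Sprr1a, Npy, Nts, Gpr151, Fst, Sox11, Flrt3, Tubb6, Stmn4, Gap43 and Lmo7. The 11 were chosen after their values were seen, and each alone lay above every control neuron in all 12 cells. The joint count therefore follows from the choice of genes. For Lmo7, at 0 in every control neuron, any value above 0 counts, such as 1.34 CPM in SNT cell 28. Of the 272 genes called higher, 54 lay above every control neuron in all 12 cells, and 12 of these did so in no other SNT neuron. In 166 of the 272, the 12 cells held at least 50% of the SNT total, and in 97 at least 75%. These counts were not made over all 9622 genes, and the 12 cells are 36.4% of the SNT neurons.

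**Figure D2:**
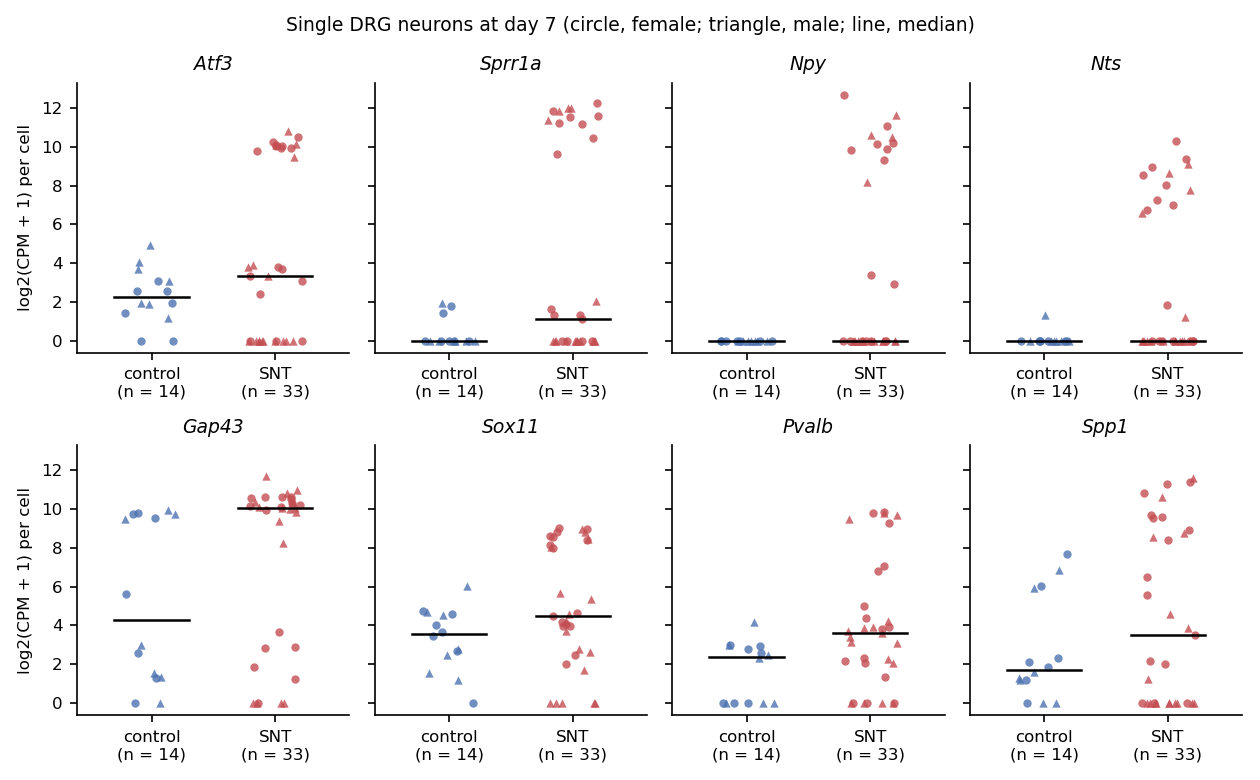
Level of 8 genes in each single cell as log2(CPM + 1), with 14 control neurons in blue and 33 SNT neurons in red, circles for female and triangles for male cells, and a line at the median. A separate upper group of SNT neurons is seen for Atf3, Sprr1a, Npy, Nts and Sox11, whereas Gap43 is high in 6 control neurons as well, Pvalb has an upper group of other SNT neurons, and Spp1 is high both in these and in 5 of the 12 cells high in Atf3.

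Of the 12 cells, 11 had Nefh at 1000 CPM or more, 1 had Calca at 100 CPM or more (998 CPM in SNT cell 29), and none had Pvalb at 500 CPM or more. Their Nefh ranged from 480 to 2822 CPM with a median of 1507, against 5678 to 8013 CPM in the 6 cells high in Pvalb. Apoe, a marker of satellite glia, was at 1000 CPM or more in 3 of the 12.

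Promoter windows of 9 genes called higher, most of them high in the 12 cells, were searched for AP-1 letters, since Atf3 is a partner of Jun at AP-1 sites. Those of Sprr1a and Nts are shown because they alone of the 9 held them. The windows run from 250 bases before to 50 bases after the start of the gene, were read 5′ to 3′ on the gene's strand, and are from RefSeq on GRCm38.p6, whereas the authors counted reads on mm9. The Sprr1a window is chr3:92485832-92486131 on the minus strand and the Nts window is chr10:102490369-102490668 on the minus strand. Capitals mark the AP-1 letters TGAGTCA or TGACTCA, which are each other's reverse complement, and begin 146 and 116 bases before the start of Sprr1a and 207 bases before that of Nts.
Sprr1a: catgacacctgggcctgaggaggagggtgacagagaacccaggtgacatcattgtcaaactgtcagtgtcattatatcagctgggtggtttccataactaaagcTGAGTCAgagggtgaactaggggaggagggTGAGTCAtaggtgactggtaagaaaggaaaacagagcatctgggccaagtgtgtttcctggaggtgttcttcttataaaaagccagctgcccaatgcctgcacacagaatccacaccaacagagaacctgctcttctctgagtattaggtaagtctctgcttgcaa
Nts: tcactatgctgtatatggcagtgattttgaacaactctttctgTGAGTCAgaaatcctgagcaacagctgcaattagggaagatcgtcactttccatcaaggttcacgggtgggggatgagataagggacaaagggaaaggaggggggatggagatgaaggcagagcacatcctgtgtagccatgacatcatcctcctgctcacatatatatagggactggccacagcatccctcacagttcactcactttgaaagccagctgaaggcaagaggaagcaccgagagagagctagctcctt
The windows of the other 7, Atf3, Npy, Gal, Adcyap1, Sox11, Gadd45a and Flrt3, held neither form of these letters, although Sox11 and Flrt3 also lay above every control neuron in exactly the 12 cells. A window was given for 196 of the 272 genes called higher, and 14 of these (7.143%) held the AP-1 letters. The share was 5 of 88 (5.68%) of the genes called lower, 303 of 7328 (4.13%) of all genes that reached the level, and 5.202% of all 32851 windows. The CRE letters were held by 10 of the 196 (5.10%), 1 of the 88 (1.14%), 283 of the 7328 (3.86%) and 1.79% of all windows. These are counts of letters in short windows and not of sites in use.

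Among the 15 genes with the largest log2 ratios, some were also found in cells outside the 12. Cyp1b1, a cytochrome P450, lay above every control neuron in 17 SNT neurons, 11 of the 12 and 6 others, and its mean was 112 ± 172 CPM against 0.747 ± 0.955 CPM (log2 ratio 6.02). The calmodulin-dependent phosphodiesterase Pde1a did so in 19 cells, 11 of the 12 and 8 others, though the 12 held 96.0% of its total, and it rested on 3 control counts (ratio 322, 109.95 to 1562). Lmo7, a protein of cell junctions, was listed at 0 in every control neuron and above 0 in all 12 and in 5 others (at least 131-fold by summed counts). SNT cell 29 held 48.6% of its total, and its log2 ratio of 5.30 was 4.42 without that cell. Anxa10, an annexin, was listed at 0 in every control neuron and above 0 in 10 SNT neurons, all of them among the 12 (at least 156-fold), with 50.8% of its total in 1 cell, and its log2 ratio of 5.17 was 4.23 without that cell. Adcyap1, the neuropeptide PACAP, lay above every control neuron in 11 of the 12 and in 2 others, with means of 168 ± 270 and 2.71 ± 8.05 CPM (log2 ratio 5.51). Galanin (Gal) was less even. It ranged from 0 to 8330 CPM in SNT neurons with a median of 0, and from 0 to 16.6 CPM in control neurons with a median of 2.95. It lay above every control neuron in 8 SNT neurons, 6 of the 12 and 2 others, and SNT cell 29 alone held 68.9% of its total, so the log2 ratio of 5.90 was 4.27 without that cell and turned to -1.98 when medians were used. Chrna3, a nicotinic receptor subunit, had 98.0% of its total in SNT cell 6 (2893 CPM), and its log2 ratio of 6.11 was 1.15 without that cell, which held Th at 679 CPM, Calca at 4884 CPM and low Nefh (347 CPM). Of 9 genes called higher with over 50% of the total in 1 cell, 6 had it in SNT cell 6, among them the pain-sensing channel Trpv1 (78.8%), the nicotinic subunit Chrnb4 (85.0%) and the calcium channel Cacna1e (92.0%).

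**Figure D3:**
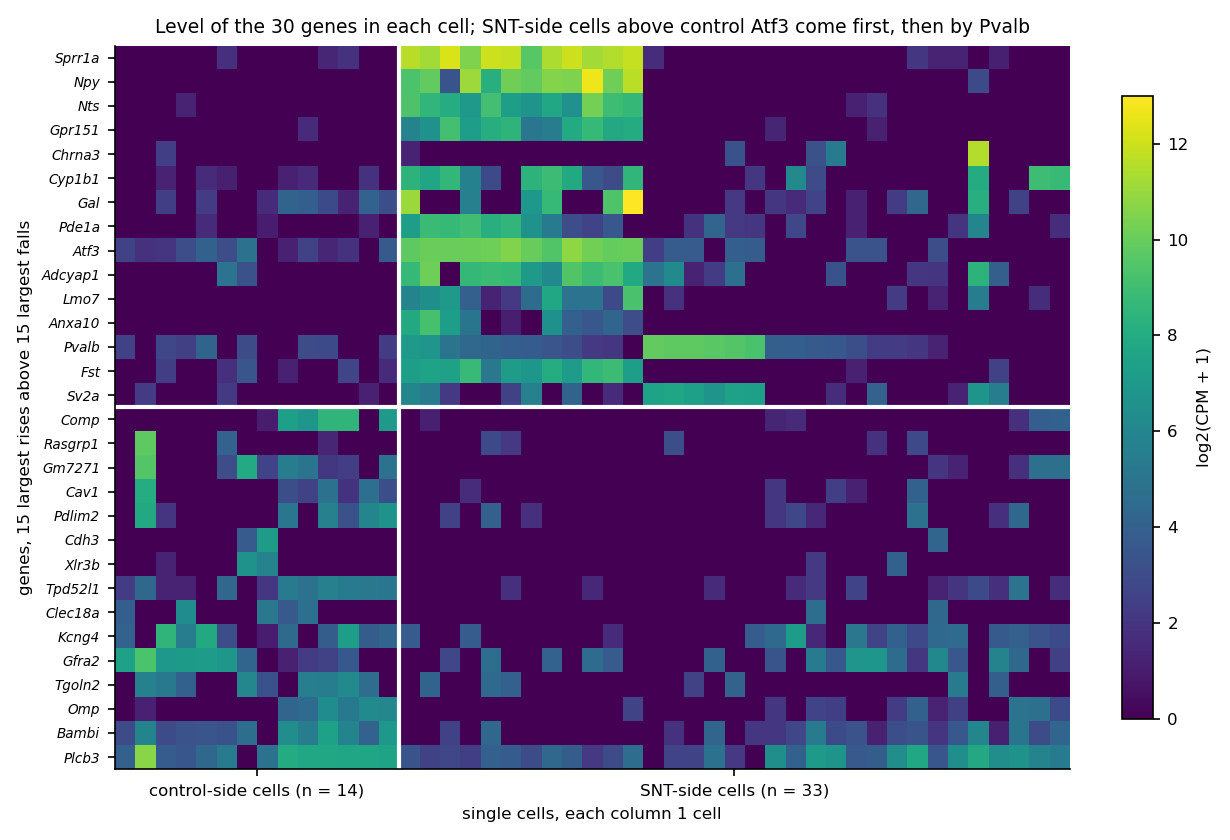
Level of the 15 largest rises (upper rows) and 15 largest falls (lower rows) in each of 47 cells, 1 column per cell, colored by log2(CPM + 1). Control-side cells are ordered by Gap43, and of the SNT neurons the 12 above control Atf3 come first, followed by the others in order of falling Pvalb. The upper rows are bright mostly in these 12 cells, Pvalb and Sv2a in the next 6, and Chrna3 in 1 cell.

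A second group of SNT neurons was set apart by Pvalb. Its mean was 160.3 ± 316 CPM in SNT neurons and 4.05 ± 4.80 CPM in control neurons (log2 ratio 5.00), and the 6 cells of 500 CPM or more, at 614 to 937 CPM, held 91.9% of the SNT total. All 6 lay inside the control range for Atf3. The other 27 SNT neurons had at most 131 CPM and control neurons at most 17.2 CPM. The 6 cells were 3 female and 3 male. They had Runx3, a transcription factor of proprioceptors, at 76.3 to 136 CPM, against at most 1.92 CPM in control neurons and 32.02 CPM in the other SNT neurons. They also had osteopontin (Spp1) at 432 to 3072 CPM, against at most 205 CPM in control neurons, with a gene on the same strand overlapping it. Spp1 was not particular to them, since it reached 2725 CPM in the other 27 SNT neurons and lay above every control neuron in 6 of these, 5 of them among the 12 high in Atf3. The synaptic vesicle protein Sv2a was at 103.7 to 200.03 CPM in the 6 cells and at no more than 3.98 CPM in control neurons. It reached 103.9 CPM in the other 27, past the lowest of the 6, and 8 of the 27 lay above every control neuron. The potassium channel Kcnc1, which serves fast firing, was above every control neuron in 14 SNT neurons, all 6 among them, and they held 74.4% of its total. The ETS factor Etv1 (84.2%) and the stereocilia scaffold whirlin, Whrn (92.0%), both chosen after their values were seen, were likewise held mostly by the 6. Of the 272 genes called higher, 42 had at least 50% of the SNT total in the 6 cells, and 51 lay above every control neuron in all 6. These counts were not made over all 9622 genes, and the 6 cells are 18.2% of the SNT neurons. Because no control neuron was high in Pvalb, a difference in the cells picked and a change with injury cannot be told apart for the genes high in the 6 cells. Without the 6 cells, 253 genes were called higher and 108 lower, 200 and 85 of them also called with all cells.

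Transcription factors linked to injury were taken as a list of 29 genes. Of the list 20 reached the level, 3 on the SNT side alone and 1 on the control side alone. Their median log2 ratio was 0.50, beside -0.07 over all genes. Of the 20, 4 were called higher (20%, beside 2.83% of all genes) and 0 lower. Besides Atf3 these were Sox11, which drives axon growth, Smad1, which carries BMP signals, and the heme-regulated repressor Bach1. Sox11 ranged from 0 to 517 CPM in SNT neurons (median 21.5) and from 0 to 65.0 CPM in control neurons (median 10.7), with a log2 ratio of 3.202, and lay above every control neuron in exactly the 12 cells high in Atf3. Smad1 ranged from 9.44 to 231 CPM (median 42.1) and from 11.1 to 37.2 CPM (median 21.8), with a log2 ratio of 1.75. It lay above every control neuron in the 12 and in 6 others, and Bach1 in the 12 and in 9 others (log2 ratio 2.14). Jun, the usual partner of Atf3, was not called, with 207 ± 155 CPM in SNT neurons and 139.5 ± 91.0 CPM in control neurons. Its log2 ratio was 1.09 in female and 0.03 in male cells, and the 5 SNT neurons above every control neuron were all among the 12. Klf6 was not called either, with a log2 ratio of 0.83 and 13 SNT neurons above every control neuron, 10 of them among the 12. Stat3 had a log2 ratio of -0.11.

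Of 27 growth-cone and regeneration effectors that reached the level (35 listed, median log2 ratio 0.99), 10 were called higher (37.04%, beside 2.83% of all genes) and 0 lower. Gap43, a growth-cone membrane protein, ranged from 0 to 3382 CPM in SNT neurons with a median of 1061 and from 0 to 977 CPM in control neurons with a median of 27.2. It lay above every control neuron in 20 SNT neurons, the 12 high in Atf3 and 8 others, and its log2 ratio was 1.36. On the control side, Gap43 of 100 CPM or more was found in 6 cells, and all 6 had Calca of 100 CPM or more. On the SNT side it was found in 23 cells, of which 11 had Calca of 100 CPM or more and 12 did not, 11 of those 12 being high in Atf3. The related proteins Marcks and Basp1 had log2 ratios of 2.19 and 1.69. Marcks lay above every control neuron in 20 SNT neurons and Basp1 in 15. Stmn4, a stathmin that binds tubulin, had 52.2 ± 66.1 and 2.66 ± 3.63 CPM (log2 ratio 3.86). The adhesion protein Flrt3 was at 276 to 917 CPM in the 12 cells and at no more than 41.4 CPM in control neurons. The cell-cycle inhibitor Cdkn1a (log2 ratio 2.96) and the stress gene Gadd45a (2.78) each lay above every control neuron in the 12 and in 1 other cell. Camk1 (2.20), a calcium-dependent kinase that overlaps the antisense gene Ogg1, and Myo10 (1.95), a myosin of filopodia, did so in the 12 and in 5 and 4 others.

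The cytoskeleton changed in a few members only. Of 20 tubulin and intermediate filament genes, 18 reached the level, and the median log2 ratio was -0.02. Of the 18, 2 were called higher (11.1%, beside 2.83% of all genes) and 0 lower. Tubb6 was at 86.4 to 597 CPM in the 12 cells, at no more than 64.1 CPM in the other SNT neurons and at no more than 77.7 CPM in control neurons. Tuba1c had 41.3 ± 70.2 and 3.95 ± 4.37 CPM (log2 ratio 3.096). The light neurofilament Nefl came close to a call at a log2 ratio of -0.99, and 22 SNT neurons lay below every control neuron, including all 12. Tubb3 and Nefh had log2 ratios of -0.10 and 0.12.

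**Figure D4:**
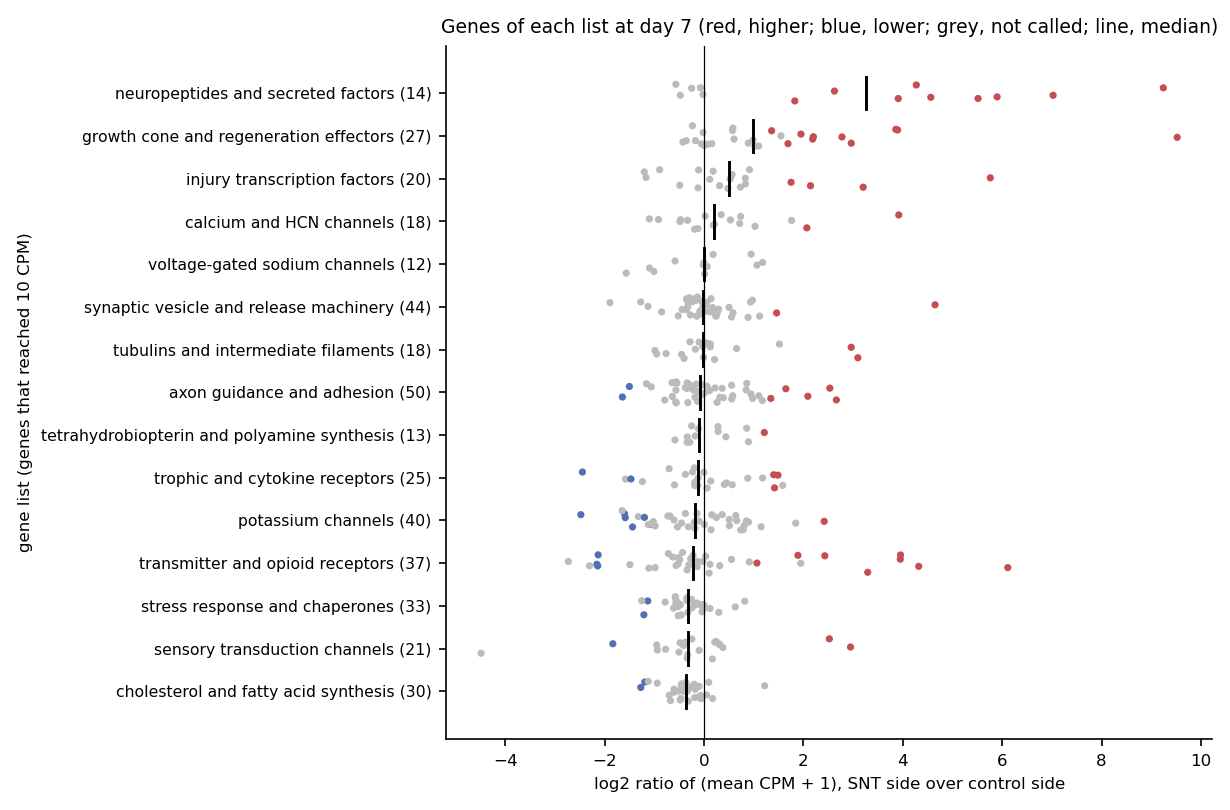
Each point is 1 gene of a pathway list that reached 10 CPM, placed by the log2 ratio of mean CPM + 1 of the SNT side over the control side, in red when called higher, blue when called lower and grey when not called, and the black line is the list's median. Sodium channels spread around 0 with no call among 12, beside 4.14% of all genes called. Of the 14 neuropeptides and secreted factors 9 are red (64.3%, beside 2.83% of all genes), 7 of the 14 having reached the level on the SNT side alone.

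Of 35 neuropeptides and secreted factors, 14 reached the level. Of the 14, 9 were called higher (64.3%, beside 2.83% of all genes) and 0 lower (beside 1.31%). Their median log2 ratio of 3.267 is set in part by the level itself, since 7 of the 14 reached 10 CPM on the SNT side alone and such a gene had to be higher there. They were the neuropeptides Npy, Nts, Gal, Adcyap1, Ucn and Tac1, the growth factor Igf1, the microglial growth factor Csf1 and the guidance protein Sema6a. Urocortin (Ucn), a relative of corticotropin-releasing factor, was above every control neuron in 11 SNT neurons, all among the 12, and rested on 1 control count (ratio 312, 55.7 to 12331). Csf1 was above every control neuron in the 12 and in 1 other, with 65.5 ± 104 against 17.7 ± 13.3 CPM (log2 ratio 1.83). Igf1 was so in 14 SNT neurons, 9 of them among the 12 (log2 ratio 3.91). Sema6a was so in exactly the 12 cells (log2 ratio 2.62). Substance P (Tac1) differed from these. It was above every control neuron in 3 SNT neurons, none of them among the 12, and SNT cell 21 held 59.1% of its total. Calca was not called, with log2 ratios of -2.27 in female and 1.03 in male cells, and the brain-derived growth factor Bdnf had a log2 ratio of -0.25.

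Receptors for transmitters and peptides had calls in both directions. Of 50 listed genes 37 reached the level, and the median log2 ratio was -0.22. Of the 37, 8 were called higher (21.6%, beside 2.83% of all genes) and 3 lower (8.11%, beside 1.31%). On the SNT side alone 8 of the 37 reached 10 CPM, and on the control side alone 2. Such genes had to be higher on that side. The cholecystokinin receptor Cckbr was above every control neuron in 10 SNT neurons, and its relative Cckar in 6, all of them among the 12. The NPY receptor Npy1r was so in 13 cells, 9 of the 12 and 4 others, with 40.5 ± 94.4 and 1.67 ± 3.03 CPM (log2 ratio 3.95). The GABA-A receptor subunits Gabrg1 and Gabra3 had log2 ratios of 2.43 and 1.06, the latter just past the limit in female cells. The cannabinoid receptor Cnr1 had a log2 ratio of 1.89. Chrna3 and Chrnb4, the other members called higher, were held by SNT cell 6. On the lower side, Htr3a ranged from 0 to 1248 CPM in SNT neurons with a median of 2.32 and from 0 to 3155 CPM in control neurons with a median of 238 (log2 ratio -2.16). Its partner subunit Htr3b was at 0 in 20 of 33 SNT neurons and in 1 of 14 control neurons (log2 ratio -2.14). Oprd1 was at 0 in 26 of 33 and 3 of 14 cells (log2 ratio -2.13). The 12 cells held 0.167% of the SNT total of Htr3a and none of that of Htr3b and Oprd1.

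Voltage-gated sodium channels, which carry the action potential, gave no call in either direction among the 12 of 13 that reached the level, and their median log2 ratio was 0.00. Of all genes 4.14% were called, so 0 calls among 12 genes is near that share. The mean of the side hid cells that differed. Scn1a and Scn8a, which serve fast-conducting neurons, had log2 ratios of -0.02 and 0.01. Scn1a was above every control neuron in 8 SNT neurons and Scn8a in 9, and for each of them all 6 cells high in Pvalb and none of the 12 high in Atf3 were included. The nociceptor channel Scn10a had a log2 ratio of -1.01 over all cells but of -0.67 in male cells, and the 12 cells held 0.285% of its SNT total. Scn11a had log2 ratios of 0.13 in female and -2.21 in male cells, and control cell 14 held 81.0% of its control total. Scn9a had a log2 ratio of 0.06.

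Of 55 potassium channel genes, 40 reached the level, 2 of them on the SNT side alone and 4 on the control side alone. Of the 40, 1 was called higher (Kcnc1, 2.5%, beside 2.83% of all genes) and 6 lower (15%, beside 1.31%). Their median log2 ratio was -0.19. The A-type channel Kcnd1 was above 0 in every cell. It ranged from 9.60 to 132 CPM in SNT neurons (median 39.995) and from 51.6 to 209.6 CPM in control neurons (median 98.0), and 20 SNT neurons lay below every control neuron, 11 of the 12 high in Atf3 among them. The sodium-activated channel Kcnt1 had medians of 44.99 and 98.2 CPM (log2 ratio -1.44), with 8 SNT neurons below every control neuron, all 8 among the 12. Kcnk18, a leak channel of nociceptors, was at 0 in 19 of 33 and 4 of 14 cells (log2 ratio -1.59). Kcng4, Kcnh5 and the channel partner Kcnip4 had log2 ratios of -2.48, -1.60 and -1.20, and each was at 0 in at least 1 control neuron, so that no cell could lie below all of them. Kcna2, a channel of the axon, was not called at 541 ± 492 and 343 ± 281 CPM, but 11 SNT neurons lay above every control neuron, none of them among the 12, and 4 lay below every control neuron, all 4 among the 12. Calcium and HCN channels gave 2 calls of 18 genes (24 listed, median 0.20), both higher (11.1%, beside 2.83% of all genes). Cacna2d1, the subunit bound by gabapentin, ranged from 0 to 1936 CPM in SNT neurons (median 247) and from 5.52 to 238 CPM in control neurons (median 106), and lay above every control neuron in the 12 and in 5 others (log2 ratio 2.07). The other was Cacna1e in SNT cell 6. Of 31 sensory transduction channels and receptors 21 reached the level (median -0.33). The chloride channel Ano1 and Trpv1 were called higher (9.52%, beside 2.83% of all genes) and the nucleotide receptor P2ry2 lower (4.76%, beside 1.31%). P2ry2 lay below every control neuron in 19 SNT neurons, at 7.41 ± 12.3 against 29.05 ± 25.7 CPM (log2 ratio -1.84). The touch channel Piezo2 had a log2 ratio of -0.10.

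Of 40 trophic and cytokine receptors listed, 25 reached the level (median log2 ratio -0.12). Of these, 3 were called higher (12%, beside 2.83% of all genes) and 2 lower (8%, beside 1.31%). Gfra1, the GDNF co-receptor, lay above every control neuron in exactly the 12 cells and below every control neuron in 11 others. Its values ran from 0 to 2159 CPM in SNT neurons and from 33.3 to 670.0 CPM in control neurons (log2 ratio 1.49), and an antisense gene overlaps it. Acvr1, a BMP receptor, and Tnfrsf12a, the TWEAK receptor, had log2 ratios of 1.42 and 1.401. Gfra2, the neurturin co-receptor, was lower at 17.1 ± 29.2 against 97.8 ± 169 CPM (log2 ratio -2.45), with 46.6% of the control total in control cell 14. The TNF receptor Tnfrsf1a was at 0 in 14 of 33 SNT neurons and in 2 of 14 control neurons (log2 ratio -1.47).

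Of 33 stress and chaperone genes (38 listed, median -0.33), 0 were called higher and 2 lower (6.06%, beside 1.31% of all genes). These 2 were the lens and muscle chaperone Cryab (log2 ratio -1.13) and the heat-shock gene Hspa1a (-1.21). Hspb1, a small heat-shock protein, was not called at a log2 ratio of -0.25, with 5 SNT neurons above and 5 below every control neuron, the 5 above all among the 12. Odc1, the first enzyme of polyamine synthesis, was the single call of 13 genes of tetrahydrobiopterin and polyamine synthesis (17 listed, median -0.11, 7.69% higher beside 2.83% of all genes). It was at 105 ± 89.0 against 44.9 ± 22.7 CPM (log2 ratio 1.21).

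Of 50 axon guidance and adhesion genes (74 listed, median -0.08), 5 were called higher (10%, beside 2.83% of all genes) and 2 lower (4%, beside 1.31%). The adhesion molecule Chl1 (log2 ratio 2.66) and the semaphorin Sema3c (1.65) were above every control neuron in 10 and 13 SNT neurons, 7 and 12 of them among the 12. Slit2, a repellent cue, was so in 7 cells, all 6 cells high in Pvalb and none of the 12 among them (2.53). Sema5a and the laminin receptor subunit Itga6 were called at 2.09 and 1.34. Sema3e was lower, with 22 SNT neurons at 0 and none of the control neurons at 0 (log2 ratio -1.50), and so was the contactin Cntn4 (-1.64). The lowest control neuron had 0.98 CPM of Sema3e and the control median was 4.79 CPM, whereas 1 count in the shallowest SNT cell is worth 3.83 CPM. The part of detection in the Sema3e values at 0 was not tested. Of 44 synaptic vesicle and release genes (49 listed, median -0.02), Sv2a and Rab3c were called higher (4.55%, near the 2.83% of all genes). Rab3c, a vesicle GTPase, ranged from 140.0 to 1091 CPM (median 534) and from 64.0 to 544 CPM (median 176), with 16 SNT neurons above every control neuron (log2 ratio 1.46). The genes of cholesterol and fatty acid synthesis had a median of -0.36 over 30 genes, with 26 of 30 below 0. Of the 30, 0 were called higher and 2 lower (6.67%, beside 1.31% of all genes). Dhcr7, the last step of cholesterol synthesis, had 50.0 ± 40.7 and 122 ± 67.2 CPM (log2 ratio -1.27) with 17 SNT neurons below every control neuron, and the desaturase Scd1 had a log2 ratio of -1.19.

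The largest falls by log2 ratio rested on few control neurons. Comp, a matrix protein of cartilage, was above 10 CPM in 5 of 14 control neurons, reaching 363 CPM, and in 2 of 33 SNT neurons (log2 ratio -5.27). Rasgrp1, an activator of Ras, had 98.0% of its control total in control cell 14, the single cell high in Mrgprd (log2 ratio -5.18, and -0.38 without that cell). The same cell held 66.7% of Gm7271 (-4.80) and 77.5% of the caveolin Cav1 (-3.83), and 6 of the 9 genes called lower with over 50% of the control total in 1 cell. The cadherin Cdh3 (-3.01, and -0.35 without it) had 92.2% in control cell 5 and Xlr3b (-2.97) had 64.5% in control cell 10. More evenly spread was Tpd52l1, above 10 CPM in 8 of 14 control neurons and in 1 of 33 SNT neurons, with medians of 19.2 and 0 CPM (log2 ratio -2.85). The Golgi protein Tgoln2 was at 0 in 26 of 33 and 5 of 14 cells (-2.44). Bambi, a decoy receptor for TGF-beta signals, had 8.03 ± 13.6 and 43.9 ± 51.0 CPM (-2.31). Plcb3, a phospholipase of nociceptors, had 43.9 ± 59.9 and 219 ± 424 CPM (-2.29), with 53.9% of the control total in control cell 14. Pdlim2 (-3.36), Clec18a (-2.49) and Omp (-2.36), with Kcng4 and Gfra2 given above, complete the 15. Without control cell 14, 264 genes were called higher and 111 lower, 235 and 87 of them also called with it.

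Broad shifts, in which at least 20 of 33 SNT neurons lay beyond every control neuron, were counted in both directions. Upward they were found for 34 genes (0.353% of those that reached the level), 18 of which were called, and downward for 67 (0.696%), 14 of which were called. Those named here were chosen after their values were seen. The glycosyltransferase Galnt2, which shares its locus with an antisense and a sense gene, and N-cadherin (Cdh2) lay above every control neuron in 26 cells, the 12 high in Atf3 and 14 others. Cdh2 ranged from 40.9 to 318 CPM in SNT neurons (median 113) and from 6.63 to 71.6 CPM in control neurons (median 51.3), a log2 ratio of 1.28. The collagen gene Col24a1 did so in 23 cells, 8 of the 12 among them (log2 ratio 2.40). In the other direction Car10, a carbonic anhydrase-like protein, lay below every control neuron in 28 cells, from 0 to 142 CPM (median 38.2) against 61.6 to 215 CPM (median 102.5), a log2 ratio of -1.26. The galectin-binding protein Lgals3bp was so in 27 cells (-1.53), the axonal transport adaptor Fez1 in 22 (-1.75), the repressor Id1 in 21 (-1.45) and the LIM homeobox factor Isl2 in 20 (-1.63). For Id1, 20 SNT neurons were at 0 and the lowest control neuron was at 1.99 CPM, so its count rests on few reads. In 1 SNT neuron Id1 lay above every control neuron. All 12 cells high in Atf3 were below every control neuron in Car10, Fez1, Id1 and Isl2. Reads counted under Lars2, the gene of the mitochondrial leucyl-tRNA synthetase, took the largest share of any gene called. They were at 49911 ± 35615 CPM in SNT neurons and 19017 ± 22567 CPM in control neurons (log2 ratio 1.39). Lars2 was above every control neuron in 9 SNT neurons, and whether its reads came from its own mRNA was not tested.

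**Figure D5:**
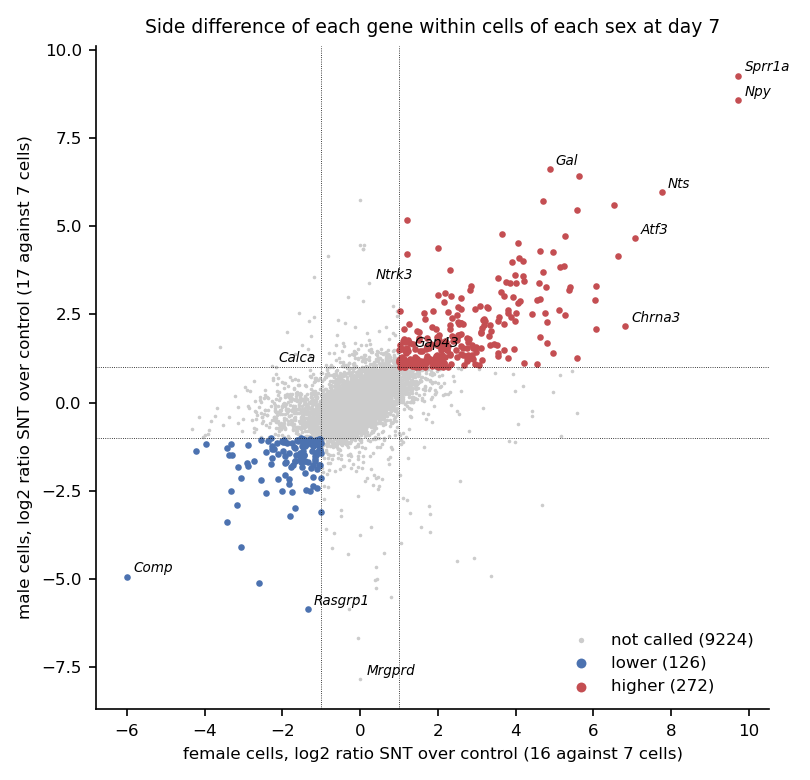
Each point is 1 of 9622 genes, with the log2 ratio of mean CPM + 1 (SNT over control) in female cells (16 against 7) on the horizontal axis and in male cells (17 against 7) on the vertical axis; dotted lines mark ratios of 1 and -1. Genes called higher (red) and lower (blue) lie past the lines in both sexes, whereas Calca lies past opposite lines in the sexes and Ntrk3 past a line in male cells only, so neither was called.

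Differences within the sexes were not alike for all genes. The median log2 ratio of all genes was -0.08 in female and -0.05 in male cells. Sprr1a (9.73 in female and 9.27 in male cells), Npy (9.72 and 8.57) and Adcyap1 (5.57 and 5.45) were close, whereas Anxa10 (6.04 and 2.92), Chrna3 (6.82 and 2.16) and Fst (6.05 and 3.297) were further apart. The neurotrophin-3 receptor Ntrk3 had ratios of 0.23 and 3.386, with 78.8% of its control total in control cell 5, and was not called. The difference between the sexes was not tested, since the labels name no animal, and the cells of the sexes differed in Atf3, Calca and Apoe as given above and below.

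Day-3 values of the same genes are set beside those of day 7, over 41 SNT-side and 18 control neurons that share no cell with day 7. Those mice were of a cross of CAST/Eij males with C57BL/6 females. The paper gives the mice of that cross as female, though the labels of those cells give no sex. The reads were single and shorter, so day, strain, sex and read type cannot be told apart. Of the 272 genes higher at day 7, 159 were past a log2 ratio of 1 at day 3 and 7 past -1, whereas 481 of the 9622 genes (5.00%) were past 1. Of the 126 lower, 56 were past -1 and 6 past 1 at day 3, beside 534 of 9622 (5.55%) past -1. Sprr1a, Npy, Nts and Atf3 had day-3 ratios of 7.57, 7.137, 6.31 and 6.30, and Sox11 and Gap43 had 3.4804 and 1.96. Jun, Klf6 and Hspb1, not called at day 7, had day-3 ratios of 1.55, 1.76 and 1.45. All 12 sodium channels that reached the level at day 7 had day-3 ratios below 0, with a median of -1.04 beside -0.05 over all genes, and values of -1.46 for Scn1a, -0.93 for Scn8a, -1.15 for Scn9a, -1.51 for Scn10a and -1.43 for Scn11a. Tac1 was at -2.95 at day 3 and 4.27 at day 7, and the serotonin receptor Htr3a was at -3.06 and -2.16. Sv2a, held at day 7 by the cells high in Pvalb, was at -0.79 at day 3, and Pdlim2 was at 3.205 at day 3 and -3.36 at day 7.

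Marker genes of other cells in the ganglion were also counted, and 2.83% of all genes called higher and 1.31% called lower stand beside these counts. Of 12 glial and Schwann cell genes 9 reached the level, none was called, and the median log2 ratio was -0.33. Their summed level ranged from 508 to 13048 CPM in SNT neurons (median 1503) and from 1246 to 9747 CPM in control neurons (median 5185), with the myelin gene Mag at 0 in every SNT neuron and in 13 control neurons, and Prx at no more than 14.3 CPM. Apoe of 1000 CPM or more was found in 13 of 33 SNT neurons (2 of 16 female and 11 of 17 male) and in 10 of 14 control neurons (4 of 7 female and 6 of 7 male). The part of glial RNA in the genes called lower was not tested. Of 12 immune genes, 2 reached the level, S100a8 and S100a9, with 93.9% and 100% of the SNT total in SNT cell 26, and the summed level ranged from 0 to 777 CPM in SNT neurons (median 6.63) and from 0 to 12.8 CPM in control neurons (median 0). The macrophage markers Csf1r and Aif1 had means of 3.313 and 0.202 CPM in SNT neurons and were at 0 in every control neuron. Csf1r reads were found in 10 SNT neurons, 7 of them among the 12 high in Atf3, and their part in the genes called higher was not tested. The globin genes Hba-a1, Hbb-b1 and Hbb-b2 had 91.8%, 99.8% and 99.6% of the SNT total in SNT cell 29, the cell highest in Gal. None of the immune, erythrocyte and endothelial genes was called, and these summed from 0 to 4456 CPM in SNT neurons (median 6.81) and from 0 to 33.3 CPM in control neurons (median 10.4) for the erythrocyte and endothelial list. Of 8 early-response genes, which dissociation can induce, 6 reached the level and Atf3 alone was called. The others of the 6 had log2 ratios of -1.20 (Fos), -1.17 (Junb), -0.90 (Egr1), 0.23 (Dusp1) and 0.56 (Jun). Among neuron-type markers that reached the level, Gfra2 alone was called of 6 NP genes (lower, 16.7% beside 1.31% of all genes, list median -1.26). Of 8 PEP genes Tac1, Adcyap1 and Trpv1 were called (higher, 37.5% beside 2.83% of all genes, list median 1.64). The PEP median is set in part by the level itself, since 4 of the 8 reached 10 CPM on the SNT side alone. Most of the SNT total of Tac1 and of Trpv1 lay in single cells, as given above. Pvalb and Spp1 were called of 12 LM genes (higher, 16.7%, list median 0.22), and Fam19a4 of 5 genes of C-fibre low-threshold mechanoreceptors (lower, 20%, list median -0.10). Neither sex-linked gene that reached the level was called.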

How the data were processed

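Day-7 single DRG neurons (33 SNT, 14 control) were analysed. The submitters' processing notes name CASAVA 1.8.2, Bowtie2, RSEM and mm9. The authors mapped reads with Bowtie2, estimated expression with RSEM over RefSeq exons after taking out ribosomal RNA, and left out outliers found by principal component analysis. The deposited tables are named TPM but hold expected counts, since 90.4% ± 1.40 of the values above 0 in an SNT-side library are exactly whole as written (tolerance 0) and library totals differ. Spike-in RNAs were not analysed here. Columns were matched to samples by title. All counts were scaled to CPM in Python 3.11.15 with numpy 2.4.6, pandas 2.3.3 and scipy 1.17.1 and drawn with matplotlib 3.10.9, and the comparison was tested on simulated data. Exact binomial (Clopper-Pearson) 95% intervals were used. A fold against 0 used 3 counts over the group. In the shallowest cell, of 261351 counts, 1 count is worth 3.83 CPM, so low single-cell values are coarse.

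Genes named in the text are the 15 largest rises and 15 largest falls among called genes without the sex-linked list, called members of 25 gene lists, members the study names and cell-type markers. Others are said to be chosen after their values were seen. Members and lists were chosen with earlier results of these data known. No search for doublets was made, as somata had been picked one by one. Some genes and the list of cell death genes are not reported here. The alternatives tried are listed in the closing section.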

Additional observations from a re-analysis of the deposited data

How the results depend on the processing

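Cells of a side share animals that no label names and are not independent, and low genes rest on few reads. With medians in place of means, 103 genes were higher and 199 lower, 34.1% higher among calls instead of 68.3%, and 57 and 67 of them were called with means too. When the highest cell of the higher side was left out for each gene, 153 were higher and 36 lower, and with a pseudocount of 10 CPM 120 and 42. A log2 limit of 2 gave 87 and 11, and a level of 100 CPM 57 and 31. A level of 1 CPM, and no limit on the level, each gave 467 higher and 175 lower. Without the requirement within each sex there were 428 and 309. Cells low in Calca (22 against 7), high in Calca (11 against 7) and low in Apoe (20 against 4), compared without that requirement and chosen after seeing the data, gave 522 and 589, 680 and 377, and 767 and 722. Leaving out control cell 7, control cell 14, the 6 cells high in Pvalb or the highest cell was also chosen after seeing the data. Counts stayed within 1.5 times with summed counts (276 and 130), median-of-ratios scaling (313 and 110, the median of all genes then being -0.003), thinned counts (287 and 144) and cells at or above the median Nefh (17 against 7 cells, 186 and 103). Of the last, however, only 91 and 39 were also called with all cells, against 234 and 106 with thinned counts, 246 and 113 with summed counts, and 272 and 110 with the other scaling. Genes above 1 CPM numbered 11478 per SNT neuron and 11863 per control neuron.

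With medians, 26 of the 30 named genes moved by more than the spread between the sexes, 3 did not and Gal turned (-1.98). For 11 of the 26 the log2 ratio became 0, among them Npy, Nts, Gpr151, Chrna3, Comp and Rasgrp1. With cells high in Nefh, 19 of the 30 moved and Rasgrp1 turned (0.68). In cells low in Calca it turned for Chrna3 (-0.15), Cav1 (0.21), Pdlim2 (0.74) and Omp (0.094), in cells high in Calca for Xlr3b (1.43), and in cells low in Apoe for Comp (0.55), Kcng4 (0.80) and Omp (1.02). The cause was not tested. No paired analysis was possible because no label ties cells of both sides to 1 animal and the replicate numbers only name cells. Sides were matched by sex alone, through the requirement for a call within each sex.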
